A study of Mus musculus with 4 samples.

Results

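The 10 genes described here encode the NF-kB transcription factors and the proteins that hold them in check: the subunits Nfkb1, Nfkb2, Rel, Rela and Relb, the inhibitors Nfkbia, Nfkbib and Nfkbie, and the feedback regulators Tnfaip3 and Birc3. They were chosen by name, each matched to 1 Ensembl gene, from a count table of 35275 genes, and all 10 were among the 12490 genes measured (2 CPM or more in at least 1 library, CPM being counts scaled by library size). The table holds 4 RNA libraries of sorted mouse thymocytes (C57BL/6, 6 to 8 weeks old, untreated), 1 for each combination of genotype and sorted population. The libraries labelled KO came from mice given as Uba3ΔT and as Uba3-/-, and those labelled WT from mice given as Uba3F/F. The promoter driving the recombinase, the number of mice per library and whether the libraries of a genotype shared mice are not given in the sources used here. Group 3 holds TCRβhi CD69hi cells and group 2 TCRβint CD69hi cells, thymocytes at successive steps after a selecting signal, group 2 being the earlier.

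NF-kB dimers wait in the cytosol bound to IkB proteins. When the T cell receptor or a TNF family receptor signals, the IKK kinases phosphorylate IkB, and a ubiquitin ligase built on the cullin CUL1 marks it for destruction, which frees the dimer to enter the nucleus. The same ligase acts on the product of Nfkb2 in the alternative branch, where NIK (Map3k14) is the upstream kinase and RelB the partner. CUL1 works only when NEDD8 is attached to it, and UBA3 carries out the first step of that attachment, the activation of NEDD8. NF-kB in turn switches on several of its own restraints, among them Nfkbia and Tnfaip3, which makes the RNA of these genes a common reading of the pathway. In the thymus the pathway takes part in the survival of selected thymocytes, in the development of regulatory T cells and in the death of self-reactive cells.

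Libraries held between 8043077 and 10299863 counts. Uba3 (ENSMUSG00000030061, chromosome 6, 97183670 to 97205647, minus strand, mm10) went against its label: it had 647 counts in the library labelled KO and 453 in WT in group 2, and 856 and 356 counts in group 3. A count over the whole gene does not tell deleted from kept exons, so the deletion was not checked, and genotypes are named throughout as their libraries are labelled. One field of the labels places both KO libraries in group 3 and both WT libraries in group 2; the titles and the design cross the 2 factors and were followed. In group 3 over group 2, 6 of 8 genes of mature thymocytes were higher and 0 lower, and 3 of 8 genes of immature thymocytes were lower and 0 higher (edgeR; at an unadjusted p under 0.05 they were 7 and 0, and 7 and 0; by DESeq2 5 and 0, and 0 and 0). All 10 T lineage markers were detected in every library, at a summed 14340 to 16461 CPM. Of these, 0 were higher and 2 lower in group 3 by edgeR, Cd5 (-0.64, log2) and Cd8b1 (-0.41), and 1 was lower by DESeq2. Between genotypes 0 were called by either tool. Cd8b1 stood at 0.956 of WT labelled KO in group 2 and 0.726 in group 3. Of all genes, edgeR called 3.35% and DESeq2 1.11% for sorted group. With 1 library a group there are no replicates for any pair of libraries. The 95% intervals given with ratios reflect counting error alone.

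The start regions of these genes are shown because several hold the motif that NF-kB dimers recognise. RefSeq promoters of the mouse build GRCm38.p6 (mm10), from 250 bases before to 50 after a gene's start, were at hand for 8 of the 10 genes, all except Nfkb1 and Relb. That motif, the kB consensus of 10 bases, was searched on both strands. It was found in a promoter of 5 of these 8 genes (Nfkb2, Rel, Nfkbia, Nfkbie and Tnfaip3), while 9.55% of 27025 genes and 8.46% of 32851 promoters held it. Rela, Nfkbib and Birc3 had no match in these windows. For each gene 1 site is set out below in the direction of the gene, with the match in capitals and 10 bases on each side. Nfkb2 and Tnfaip3 hold further matches at other sites. The sites shown for Nfkb2 and Rel each overlap another match, which began 38 and 91 bases before the start.
Nfkb2: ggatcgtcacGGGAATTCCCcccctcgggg
Rel: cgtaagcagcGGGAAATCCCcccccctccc
Nfkbie: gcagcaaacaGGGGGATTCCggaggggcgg
Nfkbia: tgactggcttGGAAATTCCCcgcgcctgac
Tnfaip3: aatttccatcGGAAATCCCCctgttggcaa
The site shown began 39 bases before the start of Nfkb2, 92 before that of Rel, 106 before that of Nfkbie, 29 before that of Nfkbia and 12 before that of Tnfaip3. Nfkb2 has 3 listed promoters, and its matches at other sites began 11 bases before the start of the first, and 236 before and 10 after that of the second. A match is a run of letters, and binding was not measured.

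The first of 2 listed promoters of Tnfaip3 and the promoter of Nfkbia are given whole, because these abundant feedback genes differed in what their RNA did between the genotypes. That of Tnfaip3 lies at chr10:19015361-19015660 (minus strand) and has another match 125 bases before the start; that of Nfkbia lies at chr12:55492598-55492897 (minus strand) and has 1 match. The other Tnfaip3 promoter, at chr10:19011914-19012213, has 0 matches. Capitals mark the kB consensus.
Tnfaip3: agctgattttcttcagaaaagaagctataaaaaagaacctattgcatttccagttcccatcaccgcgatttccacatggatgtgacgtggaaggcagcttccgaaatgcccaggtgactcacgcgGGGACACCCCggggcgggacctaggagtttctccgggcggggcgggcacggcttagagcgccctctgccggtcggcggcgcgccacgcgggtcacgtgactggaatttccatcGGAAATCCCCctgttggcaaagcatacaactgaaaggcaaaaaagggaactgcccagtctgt
Nfkbia: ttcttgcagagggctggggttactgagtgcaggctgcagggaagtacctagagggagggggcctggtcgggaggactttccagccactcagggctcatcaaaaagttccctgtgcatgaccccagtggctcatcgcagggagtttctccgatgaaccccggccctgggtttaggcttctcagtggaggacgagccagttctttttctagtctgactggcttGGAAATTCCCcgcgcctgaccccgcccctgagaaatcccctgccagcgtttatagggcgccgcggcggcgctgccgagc

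Levels were compared between genes as RPKM (counts per kilobase of gene, scaled to the library total, as deposited), over the gene lengths the authors used. Nfkbia, which encodes the classical inhibitor IkBα, was the most abundant of the 10, between 399.5 and 462 RPKM over the 4 libraries (mean 434). Tnfaip3, whose product is a ubiquitin-editing enzyme that shuts off signalling from TNF receptors and the T cell receptor, came next at 107 to 184 RPKM. Nfkbib (59.6 to 70.6 RPKM) and Rela (60.7 to 63.4 RPKM) followed. These were followed by Birc3 (39.9 to 59.2 RPKM) and Nfkbie (29.8 to 38.3 RPKM), and then by Nfkb1 (15.7 to 29.2 RPKM), Relb (14.5 to 23.6 RPKM), Nfkb2 (14.0 to 18.0 RPKM) and Rel (5.48 to 8.30 RPKM). The ranges of Nfkbib and Rela overlapped, as did those of Nfkb1 and Relb and of Relb and Nfkb2, so the order within those pairs was not fixed. The other neighbours did not overlap, but an order between genes also rests on the lengths used. These were 1198 bp for Birc3 and 2422 bp for Nfkbie, and Nfkbie had more counts than Birc3 in every library. Summed inhibitor RNA exceeded summed subunit RNA in every library, and this rested on Nfkbia alone. Without it, Nfkbib and Nfkbie together stood below the 5 subunits in every library. The 3 inhibitors summed to 569.8 and the 5 subunits to 127 RPKM in the library labelled KO of group 2. In WT group 2 they summed to 536 and 126 RPKM. In group 3 the sums were 494 and 124 RPKM in the library labelled KO, and 533 and 128 RPKM in WT.

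**Figure D1:**
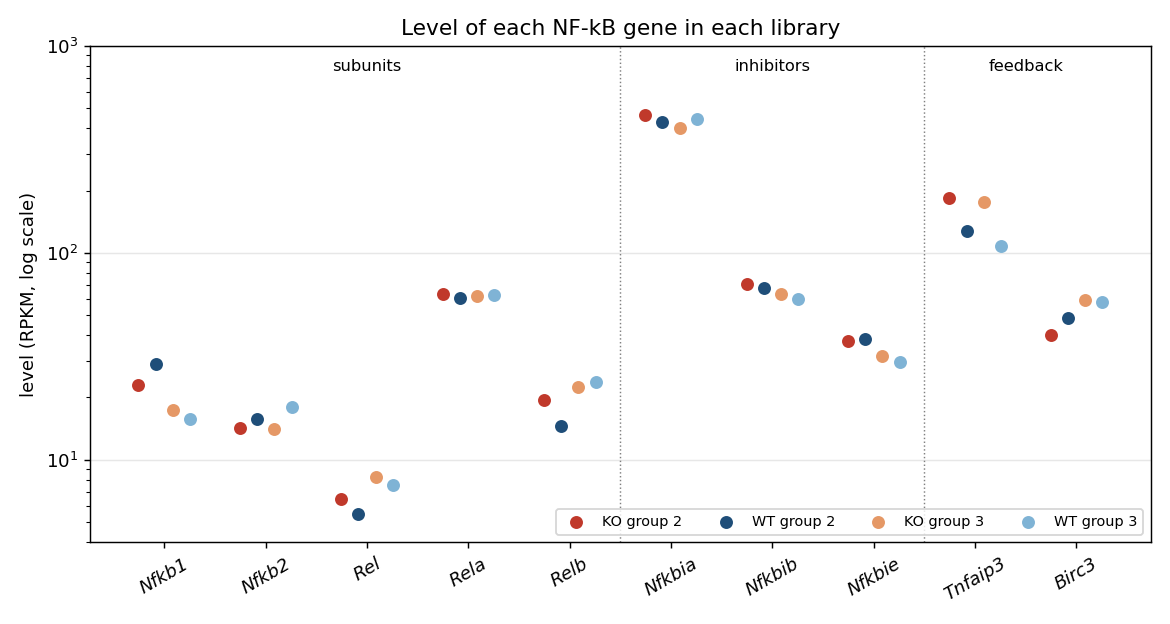
Level in RPKM (log scale) of each of the 10 genes in the 4 libraries, 1 point a library, with subunits, inhibitors and feedback genes set apart by dotted lines. Nfkbia lies between 399.5 and 462 RPKM and Rel between 5.48 and 8.30 RPKM, and for Tnfaip3 both libraries labelled KO (184 and 176 RPKM) lie above both WT libraries (127 and 107 RPKM).

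The genes differed in how steady they were. Rela, the main transactivating subunit, had an SD of 1.84% of its mean over the 4 libraries, and Nfkbia one of 6.04%. Nfkb1 had 28.6%, Tnfaip3 25% and Relb 20.4%, the widest of the 10. For Tnfaip3 both libraries labelled KO lay above both WT libraries, and for Nfkb1 both group 3 libraries lay below both group 2 libraries.

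The first question was whether the KO label goes with a change in the RNA of the pathway that the CUL1 ligase releases. Between genotypes Tnfaip3 was higher in the libraries labelled KO. It had 184 RPKM in the library labelled KO and 127 RPKM in WT in group 2, and 176 and 107 RPKM in group 3. Both libraries labelled KO thus lay above both WT libraries, with no overlap. After scaling, the ratio was 1.49 in group 2 (interval 1.43 to 1.56) and 1.69 in group 3 (1.61 to 1.78). The effect shared by both sorted groups was 0.67 on the log2 scale (SE 0.14; edgeR quasi-likelihood, adjusted p 0.000142), the same direction in 2 of 2 pairs. DESeq2 gave 0.67 with an adjusted p of 0.000984. In bulk libraries, a change in RNA per cell and a change in the share of cells that express a gene cannot be told apart.

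In that model of sorted group plus genotype, 1 of the 10 genes was called, Tnfaip3, against 4.82% of all 12490 genes (2.95% higher and 1.87% lower). Its error term has 1 residual degree of freedom, which measures how far the genotype effect differs from one sorted group to the other, with spread borrowed across genes; variation between mice was not measured. With sorted group left out of the model, or with any 1 library left out as well, Tnfaip3 kept its direction (0.55 to 0.79) and lost the call (adjusted p 0.147 to 0.306), as the share of all genes called fell to between 0.184% and 0.977%.

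Between genotypes, several genes that handling of cells can induce were higher along with Tnfaip3. Of 9 measured in a list of 10, Fos, Jun, Jund, Egr1 and Ier2 rose and 0 fell (edgeR; 6 and 0 at an unadjusted p under 0.05; 3 and 0 by DESeq2), and the list summed to 3343 CPM in the library labelled KO and 2173 CPM in WT in group 2, and to 4060 and 2935 CPM in group 3. Hspa1a of that list was at 0 counts in WT group 3. Markers of macrophages and dendritic cells summed to 468 and 270.3 CPM in group 2 and to 409 and 349 CPM in group 3, in libraries labelled KO and in WT (2 of 11 measured rose, 0 by DESeq2; none of the 12 at 0). Regulatory T cell markers fell in 3 of 8 (3 by DESeq2), with sums of 299.8 CPM labelled KO and 499 CPM in WT in group 2, and 266 and 388 CPM in group 3 (none at 0). Neutrophil markers summed to 1.02 CPM labelled KO and 2.00 CPM in WT in group 2, and to 42.1 and 1.72 CPM in group 3, where S100a8 and S100a9 were at 0 in WT; 2 of 4 measured rose, 0 by DESeq2. B cell markers summed to 86.2 CPM labelled KO and 69.5 CPM in WT in group 2, and to 67.1 and 60.8 CPM in group 3, and thymic epithelial markers to 35.7 and 44.0 CPM, and 42.8 and 38.1 CPM (Foxn1 at 0 in both libraries labelled KO); none was called. Maturation markers moved as well: 5 of 8 of immature thymocytes fell (4 by DESeq2), with sums of 3919 CPM labelled KO and 4568 CPM in WT in group 2 and 2783 and 3703 CPM in group 3, and 3 of 8 of mature thymocytes rose (Tnfsf11 among them; 2 by DESeq2), with sums of 2076 and 1772 CPM, and 3523 and 2883 CPM. Of all genes, edgeR called 4.82% and DESeq2 1.43% for genotype. The part of these lists in the Tnfaip3 result was not tested.

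The RNA of the inhibitors, whose proteins are the direct substrates of the CUL1 ligase, was not called between genotypes. IkB protein was not measured. Nfkbia had 462 RPKM in the library labelled KO and 429.8 RPKM in WT in group 2, and 399.5 and 444 RPKM in group 3. The library labelled KO was thus the higher in group 2 and the lower in group 3, by ratios of 1.11 (interval 1.07 to 1.15) and 0.929 (0.896 to 0.963), and the shared effect was 0.02 (log2, SE 0.13; edgeR, adjusted p 0.982). Nfkbib, which encodes IkBβ, had 70.6 RPKM labelled KO and 67.6 RPKM in WT in group 2, and 63.1 and 59.6 RPKM in group 3; its ratios were 1.08 (0.983 to 1.19) and 1.09 (0.982 to 1.22). Nfkbie, which encodes IkBε, had 37.6 RPKM labelled KO and 38.3 RPKM in WT in group 2, and 31.8 and 29.8 RPKM in group 3, with ratios of 1.02 (0.925 to 1.12) and 1.10 (0.986 to 1.23). Over both sorted groups the effects of Nfkbib and Nfkbie were 0.12 (SE 0.16) and 0.08 (SE 0.16), and neither was called. A p that misses the threshold does not show equal levels. The intervals of these 6 ratios lie between 0.896 and 1.23, but they hold counting error alone and not the spread between mice. Nfkbib shares 42 exon bases with Sirt2 and 314 with Ccer2 on the other strand, and strand use in the counting is not given in the sources used here; Ccer2 had at most 1 count and Sirt2 956 to 1634.

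Among the subunits, Rela (the subunit RelA) had 63.4 RPKM in the library labelled KO and 60.7 RPKM in WT in group 2, and 61.9 and 62.8 RPKM in group 3. The 4 libraries lay within 1.04-fold of each other. Its direction in group 3 turns with the scaling, the ratio being 1.02 (0.947 to 1.09) as scaled here. Rel, whose product c-Rel is the subunit most tied to T cell activation, was the least abundant: 6.50 RPKM labelled KO and 5.48 RPKM in WT in group 2, and 8.30 and 7.55 RPKM in group 3. Both ratios were above 1, at 1.23 (0.979 to 1.54) and 1.13 (0.924 to 1.39), and both intervals included 1.

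Of the remaining subunits, Nfkb1 and Relb moved unevenly between sorted groups. Nfkb1, which encodes the precursor of the usual partner of RelA, had 23.0 RPKM labelled KO and 29.2 RPKM in WT in group 2, and 17.4 and 15.7 RPKM in group 3, that is, lower in the library labelled KO in group 2 (ratio 0.816, 0.726 to 0.918) and 1.14 times WT in group 3 (0.977 to 1.33). Relb, of the alternative branch, had 19.4 RPKM labelled KO and 14.5 RPKM in WT in group 2, and 22.6 and 23.6 RPKM in group 3. Its ratio was 1.38 in group 2 (1.19 to 1.62) and 0.986 in group 3 (0.860 to 1.13). Nfkb2, the partner of Relb, stood below WT in both, with 14.3 RPKM labelled KO and 15.8 RPKM in WT in group 2, and 14.0 and 18.0 RPKM in group 3; the interval excluded 1 in group 3 (ratio 0.807, 0.705 to 0.923) and not in group 2 (0.937, 0.820 to 1.07). Nfkb2 shares 299 exon bases with Psd on the other strand, which had 9 to 25 counts, and 531 with AC114539.1, whose counts were not analysed here.

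Birc3, a ubiquitin ligase of TNF receptor complexes and itself a target of the pathway, differed in the same uneven way. It had 39.9 RPKM labelled KO and 48.6 RPKM in WT in group 2, and 59.2 and 58.0 RPKM in group 3. The library labelled KO was lower in group 2 (ratio 0.850, 0.749 to 0.964), and in group 3 the ratio was 1.05 (0.940 to 1.18).

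The counts of genes past a fold rule between genotypes were too small to set the 10 apart from all genes. In group 2, 0 of the 10 genes were past 2-fold with an interval excluding 1, where 8.9% of all measured genes were, and 0 were past 1.5-fold, where 19.9% were. In 6 of 10 (4 higher, 2 lower) the interval excluded 1, against 53.2% of all genes (27.3% higher, 25.8% lower). In group 3, 0 were past 2-fold (7.77% of all), Tnfaip3 alone was past 1.5-fold (17% of all, 6.39% higher), and in 3 of 10 (1 higher, 2 lower) the interval excluded 1 (48.2% of all, 24.5% higher and 23.7% lower). The median log2 fold of the 10 was 0.11 in group 2 and 0.10 in group 3, against 0.00 and -0.01 over all measured genes. The median size of the log2 fold, sign set aside, was 0.19 and 0.13 for the 10, against 0.28 and 0.26 over all measured genes and 0.22 and 0.21 over those with 10 CPM in a library.

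**Figure D2:**
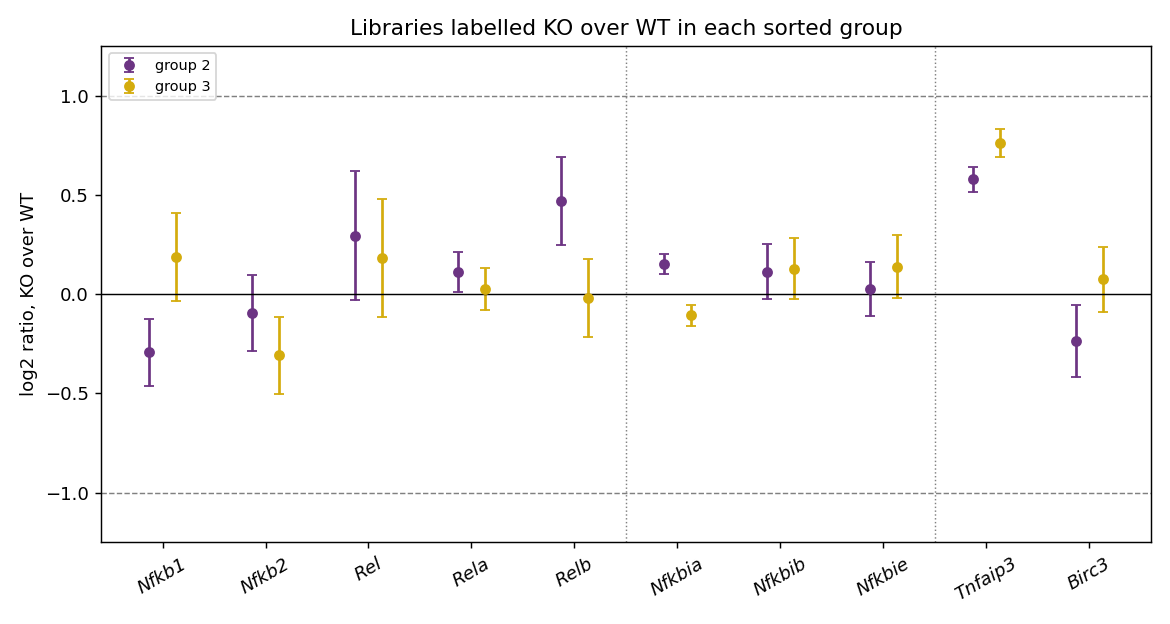
Log2 ratio of the library labelled KO over WT for each gene in group 2 (purple) and group 3 (yellow), with 95% intervals of counting error; dashed lines mark 2-fold. Tnfaip3 lies at ratios of 1.49 and 1.69, and no gene reaches 2-fold in either sorted group.

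The difference between the 2 genotype folds has no residual degree of freedom and was not tested against replicate spread. In counting error alone, group 3 minus group 2 was 0.48 on the log2 scale for Nfkb1 (0.21 to 0.75), -0.49 for Relb (-0.78 to -0.20), -0.26 for Nfkbia (-0.33 to -0.19), 0.31 for Birc3 (0.07 to 0.55) and 0.18 for Tnfaip3 (0.09 to 0.28). For the other 5 genes the interval included 0.

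The second comparison was the maturation step, group 3 over group 2, within each genotype. Of the 10 genes, Nfkb1 was the 1 that edgeR called, and it was lower in group 3. It had 17.4 RPKM in group 3 and 23.0 RPKM in group 2 of the libraries labelled KO, and 15.7 and 29.2 RPKM in WT. Both group 3 libraries thus lay below both group 2 libraries. The ratio was 0.757 labelled KO (0.661 to 0.866) and 0.542 in WT (0.472 to 0.622), and the step shared by both genotypes fell by 0.64 on the log2 scale (SE 0.18; edgeR, adjusted p 0.0197), lower in 2 of 2 pairs. This call was lost with DESeq2 (adjusted p 0.415), with no filter on low counts (0.16), with genotype left out of the model (0.496), and with any 1 library left out as well (0.416 or more), while the fitted value stayed between -0.78 and -0.49. It was the 1 call among the 10 genes, where 3.35% of all genes were called (2.21% higher and 1.14% lower).

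Relb, Rel and Birc3 stood higher in group 3 than in group 2 in both genotypes. Relb had 22.6 RPKM in group 3 and 19.4 RPKM in group 2 labelled KO, and 23.6 and 14.5 RPKM in WT, ratios of 1.17 (1.01 to 1.34) and 1.64 (1.41 to 1.90). For Birc3 the ratios were 1.48 labelled KO (1.31 to 1.68) and 1.20 in WT (1.07 to 1.35), and for Rel 1.28 (1.04 to 1.58) and 1.39 (1.11 to 1.73). The shared steps were 0.46 for Relb (SE 0.19; edgeR, adjusted p 0.245), 0.42 for Birc3 (SE 0.17, adjusted p 0.248) and 0.41 for Rel (SE 0.24, adjusted p 0.593), and none passed the threshold.

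The inhibitors other than Nfkbia stood lower in group 3. Nfkbie had 31.8 RPKM in group 3 and 37.6 RPKM in group 2 labelled KO, and 29.8 and 38.3 RPKM in WT, with ratios of 0.848 (0.767 to 0.937) and 0.783 (0.705 to 0.869). Nfkbib had ratios of 0.895 (0.811 to 0.989) and 0.886 (0.799 to 0.983). Neither shared step was called, at -0.30 (SE 0.16; edgeR, adjusted p 0.55) and -0.17 (SE 0.16, adjusted p 0.908). Nfkbia stood at 0.867 of group 2 labelled KO (0.838 to 0.898) and at 1.04 in WT (1.002 to 1.075), and Tnfaip3 at 0.962 (0.924 to 1.002) and 0.848 (0.805 to 0.894). Rela stood at 0.979 (0.913 to 1.05) and 1.04 (0.967 to 1.12), and Nfkb2 stood at 0.985 (0.857 to 1.13) and 1.14 (1.005 to 1.30).

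Over the step, 0 of 10 genes were past 2-fold in either genotype, against 7.84% of all genes labelled KO and 7.08% in WT. Past 1.5-fold were 0 labelled KO (16.6% of all) and 2 in WT, Relb higher and Nfkb1 lower (16.2% of all, 10.1% higher and 6.04% lower). The interval excluded 1 in 7 of 10 labelled KO (3 higher, 4 lower) and in 9 of 10 in WT (5 higher, 4 lower), against 48.6% (24.4% higher, 24.2% lower) and 47.9% (23.8% higher, 24.1% lower) of all genes. Intervals of counting error narrow as counts rise, so these shares depend on abundance as well. The median size of the log2 fold, sign set aside, was 0.212 labelled KO and 0.248 in WT for the 10. It was 0.251 and 0.245 over all measured genes, and 0.204 and 0.201 over those with 10 CPM in a library. The step comparisons and the genotype comparisons share libraries, so their folds are not separate evidence.

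**Figure D3:**
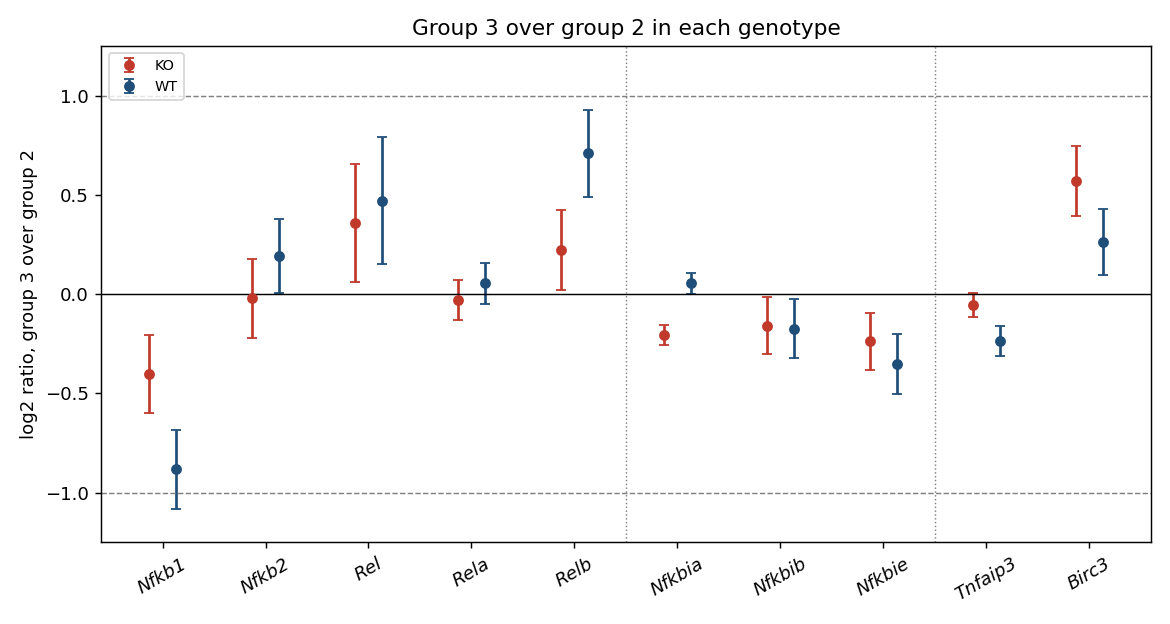
Log2 ratio of group 3 over group 2 for each gene in the libraries labelled KO (red) and in WT (blue), with 95% intervals of counting error; dashed lines mark 2-fold. Nfkb1 lies at ratios of 0.757 and 0.542, and Relb at 1.17 and 1.64.

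The balance between members shifted with these changes. Tnfaip3 RNA stood at 0.398 of Nfkbia RNA (RPKM over RPKM) in the library labelled KO and 0.296 in WT in group 2, and at 0.441 and 0.242 in group 3. Nfkb1 RNA stood at 0.281 of Rela RNA in group 3 and 0.363 in group 2 labelled KO, and at 0.251 and 0.481 in WT. Among 8602 named protein-coding genes with 10 CPM in a library, the profile over the 4 libraries most like that of Tnfaip3 belonged to Rbm38, Gem and Gsr (root mean square difference of centred log2 CPM 0.03, 0.05 and 0.05). For Nfkb1 it was Gtdc1, Epc2 and Pan3 (0.01, 0.03 and 0.03). Likeness over 4 libraries is a description.

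The rest of the pathway was described with 8 lists holding 90 genes, of which 87 were measured. Between genotypes, 6 of the 87 rose and 2 fell by edgeR, where 2.95% of all genes rose and 1.87% fell. By DESeq2 4 rose and 1 fell, where 1.43% of all genes were called in either direction. The median effect was 0.05 (log2), against 0.00 over all genes.

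Receptors and ligands held 4 of the 8 calls. Tnfsf11, which encodes the ligand RANKL through which thymocytes act on the medullary epithelium, and 1 of the mature thymocyte markers above, had 24 CPM labelled KO and 9.72 CPM in WT in group 2, and 75.7 and 28.9 CPM in group 3 (1.35, SE 0.21; edgeR, adjusted p 3.76e-08). Tnfrsf1b, a receptor for TNF, had 53.2 CPM labelled KO and 25.2 CPM in WT in group 2, and 71.5 and 48.8 CPM in group 3 (0.81, SE 0.19). The costimulatory receptors Tnfrsf4 and Tnfrsf9 were lower. Tnfrsf4, also on the regulatory T cell list, had 15 CPM labelled KO and 30.2 CPM in WT in group 2, and 39.8 and 94.3 CPM in group 3 (-1.14, SE 0.19), and Tnfrsf9 had 37.4 and 58.5 CPM, and 47.9 and 83.4 CPM (-0.72, SE 0.18). The most abundant of the list, Cd27 and Ltb, were not called (-0.03, SE 0.13, and -0.13, SE 0.14).

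Between receptor and IKK, Bcl10, an adaptor of antigen receptor signalling, rose by 0.49 (SE 0.15; edgeR, adjusted p 0.0263), with 189.8 CPM labelled KO and 148 CPM in WT in group 2, and 196 and 127 CPM in group 3. It was 1 of 12 measured in the adaptor list, where Prkcq (0.02, SE 0.14) and Rbck1 (0.10, SE 0.15) were not called. DESeq2 called neither Bcl10 (adjusted p 0.185) nor Tnfrsf1b (0.1) nor Tnfrsf9 (0.116). Of the 7 IKK and related kinases 0 were called by edgeR or DESeq2, and 0 at an unadjusted p under 0.05 by either. Ikbkb stood at -0.17 (SE 0.15), Ikbke at 0.05 (SE 0.16), Map3k14 at 0.45 (SE 0.26) and Chuk at -0.18 (SE 0.16). By sorted group, Map3k14 stood at 1.02 times WT in group 2 (interval 0.788 to 1.32) and 1.83 in group 3 (1.43 to 2.37). Chuk stood at 0.669 (0.601 to 0.745) and 1.16 (1.04 to 1.28).

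Among genes of the ligase that marks IkB, Uba3 was the 1 called. Of 11 measured genes of the CUL1 ligase and the NEDD8 enzymes, Uba3 rose by 0.90 (SE 0.17; edgeR, adjusted p 2.65e-05) and no other was called. Cul1 itself stood at -0.07 (SE 0.16), and the substrate receptor genes Btrc and Fbxw11 at -0.02 (SE 0.17) and 0.21 (SE 0.17). Skp1a stood at -0.18 (SE 0.13) and Rbx1 at -0.03 (SE 0.15). Folds by sorted group were less even. Cul1 stood at 0.780 of WT in group 2 (interval 0.711 to 0.856) and 1.16 in group 3 (1.06 to 1.27). Btrc stood at 0.825 (0.733 to 0.929) and 1.17 (1.04 to 1.33), and Rbx1 at 0.863 (0.805 to 0.926) and 1.10 (1.03 to 1.19). Ube2m went the other way, at 1.17 (1.08 to 1.26) and 0.764 (0.710 to 0.822). Skp1a was below WT in both, at 0.920 and 0.849.

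Other restraints of the pathway gave no call. Of 13 other feedback inhibitors 0 were called by either tool, and 0 at an unadjusted p under 0.05 by either; the most abundant, Tax1bp1 and Otulin, stood at 0.11 (SE 0.14) and 0.15 (SE 0.16). The 4 atypical IkB genes measured gave 0 calls in the same way, with Nfkbid at -0.01 (SE 0.15) and Nfkbiz at 0.12 (SE 0.19). Among the 5 genes of TRAF and cIAP control of NIK 0 were called by either tool, with 1 higher at an unadjusted p under 0.05 by edgeR and 0 by DESeq2; Traf2 stood at -0.01 (SE 0.16) and Birc2 at -0.23 (SE 0.16). Of 19 other targets Junb (1.08, SE 0.13; edgeR, adjusted p 4.25e-14) and Irf1 (0.64, SE 0.15; adjusted p 0.000827) rose and 0 fell (1 at an unadjusted p under 0.05, and 0 by DESeq2), both of them genes that other pathways induce as well. Junb had 1284 CPM labelled KO and 559 CPM in WT in group 2, and 1924 and 995 CPM in group 3. Bcl2l1 (-0.04, SE 0.14) and Ccr7 (-0.13, SE 0.14) were not called.

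**Figure D4:**
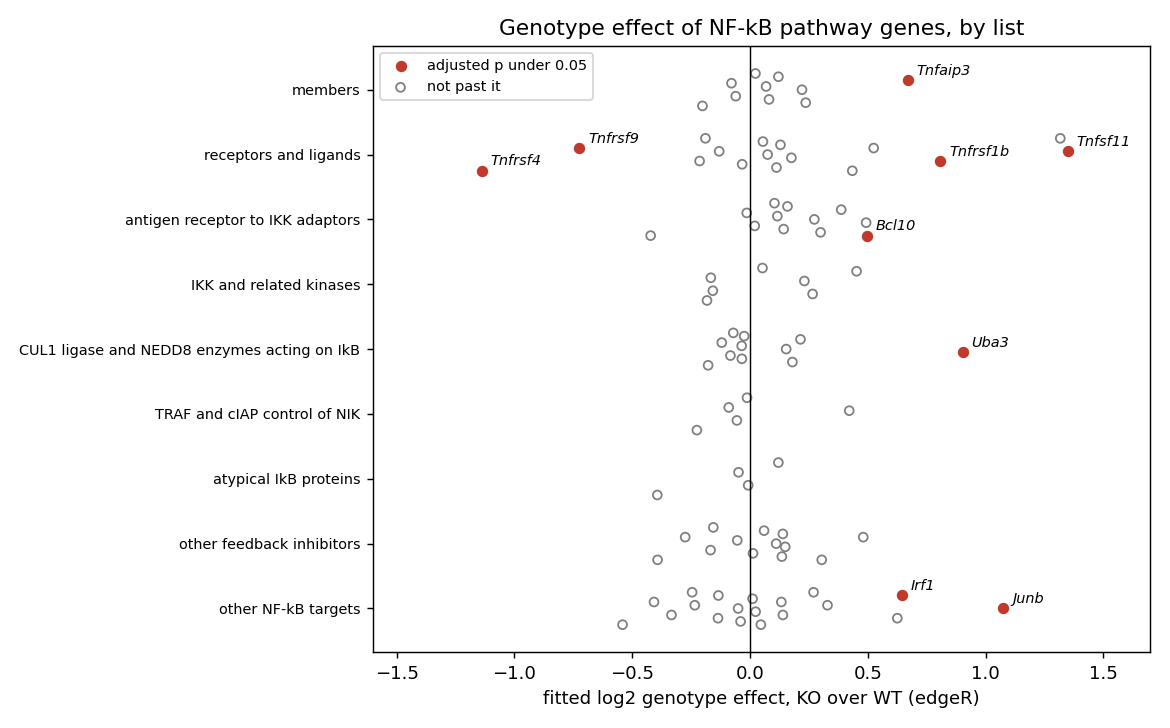
Fitted log2 genotype effect (libraries labelled KO over WT, edgeR) of the 10 genes and of the 8 pathway lists, 1 point a gene, red where the adjusted p was under 0.05. Tnfaip3 at 0.67 is the red point among the 10, and the lists of kinases, NIK control, atypical IkB proteins and other feedback inhibitors hold none.

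Across the maturation step every call in the pathway lists was higher in group 3. Of the 87 genes 12 rose and 0 fell in group 3 by edgeR, where 2.21% of all genes rose and 1.14% fell. At an unadjusted p under 0.05 by edgeR they were 21 and 5. By DESeq2 they were 7 and 0, where 1.11% of all genes were called in either direction. The median step was 0.13 (log2), against -0.01 over all genes. The ligands Tnfsf11, Cd40lg and Lta and the receptors Tnfrsf4 and Tnfrsf1b were among the 12, with shared steps of 1.62 (SE 0.21), 1.52 (SE 0.19), 0.90 (SE 0.23), 1.54 (SE 0.20) and 0.68 (SE 0.19). So were Ccr7 (1.75, SE 0.14), the chemokine receptor that takes thymocytes to the medulla, Irf1 (0.63, SE 0.15), Junb (0.71, SE 0.13), Ikbke (0.67, SE 0.16), Bcl3 (1.44, SE 0.30), Nlrc5 (0.95, SE 0.20) and Relt (0.78, SE 0.23). DESeq2 did not call Lta, Tnfrsf1b, Ikbke, Bcl3 or Relt. Ccr7 and Tnfsf11 are also among the 8 mature thymocyte markers used above to check the sort, and Tnfrsf4 is among the regulatory T cell markers, so these are not separate results. Of the genes that handling can induce, Egr1 and Ier2 were higher in group 3 (2 by DESeq2 as well), and the list summed to 4060 CPM in group 3 and 3343 CPM in group 2 labelled KO, and to 2935 and 2173 CPM in WT. Of the neutrophil markers Ngp and Ltf were higher (1 by DESeq2), with sums of 42.1 CPM in group 3 and 1.02 CPM in group 2 labelled KO, and 1.72 and 2.00 CPM in WT. Regulatory T cell markers were higher for 2 and lower for 1 of 8 (2 and 1 by DESeq2). The part of these lists in the step was not tested. Bcl3, a nuclear IkB protein, had 12.1 CPM in group 3 and 7.02 CPM in group 2 labelled KO, and 23.8 and 5.62 CPM in WT. Of the 10 genes themselves, 0 rose by the same test (2 at an unadjusted p under 0.05; 0 by DESeq2) and Nfkb1 fell.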

How the data were processed

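Total RNA of 4 sorted thymocyte libraries was sequenced, 1 library a group. The submitters' processing notes name TopHat2 2.0.12 and the build mm10. How reads were counted (program, annotation, strand) is not given in the sources used here. The authors deposited raw counts per Ensembl gene and RPKM per library. The deposited RPKM and counts together implied 1 whole length a gene (within 0.01 bp), and zeros matched. Symbols and mm10 coordinates came from GENCODE release M21 (34490 of 35275 IDs).

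Counts were scaled by TMM in edgeR 4.0.16 (R 4.3.3). Folds were ratios of scaled CPM plus 0.5, with exact conditional binomial (Clopper-Pearson) 95% intervals without the pseudocount; a gene was past the fold where it differed by at least 2-fold and its interval left out 1. edgeR's quasi-likelihood test (model of sorted group plus genotype, common dispersion 0.0288, Benjamini-Hochberg adjustment over 12490 genes, threshold 0.05) was the main test. It was also run on simulated counts, and no result given here rests on that run. Standard errors are the fitted log2 effect over the square root of F. DESeq2 1.42.0 was an alternative.

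The 10 genes and the pathway and marker lists were chosen with earlier results of these data known. Named pathway genes were those called for genotype and the 2 most abundant others of a list. Genes called for sorted group, and Cul1, Btrc, Fbxw11, Ube2m, Map3k14 and Chuk, were named after their values were seen. RPKM were not rescaled by TMM. Replicate cultures or mice are not recorded.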

Additional observations from a re-analysis of the deposited data

Results flagged for a closer look

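Nfkbia was flagged because its intervals excluded 1 in opposite directions under the same contrast. For Nfkbia the log2 fold of the library labelled KO over WT was 0.15 in group 2 and -0.11 in group 3. For group 3 over group 2 it was -0.20 labelled KO, and 0.053 in WT. The difference was not tested, since each group is 1 library, and both statements rest on the same 4 counts. The genotype folds kept their opposite directions with DESeq2 size factors (ratios 1.11 and 0.934) and with library totals (1.07 and 0.901), with every interval excluding 1. The step in WT did not: its interval reached 0.999 with DESeq2 size factors and 0.996 with library totals. With 5627 to 6981 counts a library, counting error is small for this gene, and spread between mice was not measured.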

How the results depend on the processing

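The count of genes past the fold was 0 of 10 in all 4 pairwise comparisons, and stayed 0 with DESeq2 size factors, library totals and a pseudocount of 2 CPM. With a 1.5-fold rule it was 1 for KO over WT in group 3 and 2 for group 3 over group 2 in WT, and 0 in the other comparisons. For the genotype effect 1 gene was called; 0 were with sorted group left out of the model, and with 1 library left out as well the count was 0 to 0. For the sorted group effect 1 was called; the count was 0 with DESeq2, 0 with no filter, 0 with genotype left out of the model, and 0 to 0 with 1 library left out as well. With 3 libraries and both factors no residual degree of freedom is left, so the other factor was dropped there, and fewer samples were used. The other causes were not tested. Of 120 folds of the 10 genes under other scalings or pseudocount, 119 moved by less than counting error; Nfkbia in group 2 stood at 0.10 with library totals. Nfkbie in group 2 and Rela in group 3 changed sign with the scaling, inside intervals that include 1. No direction of a called gene reversed. The number of all genes called for genotype was 368 higher and 234 lower with edgeR, 125 and 54 with DESeq2, 244 and 125 with no filter and 17 and 6 with sorted group left out; for sorted group these were 276 and 143, 100 and 39, 205 and 83, and 9 and 5. No paired analysis was possible because each group holds 1 library, so no replicate numbers pair samples; the model of both factors does compare the genotypes within each sorted group. Counting limits Rel most, at 158 to 225 counts a library.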
